A study of Drosophila melanogaster with 9 samples.

Results

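The genes described here are the long-intron genes of the fly: those whose span on the chromosome, introns included, is at least 40000 bases and whose exons together make up less than 0.5 of that span. The span was read from the gene length of the CLIP-seq count table and the exonic length from that of the RNA-seq count table, so no measured level entered the choice. The rule gave 455 of 17806 named genes. A further 24 genes reached the span and were left out, 14 for a colon in the name and 10 for an exonic share of 0.5 or more. Members span 40003 to 1965857 bases with a median of 59682 bases, while their exons sum to a median of 7289 bases, or 11.4% of the span. The median of the other 17351 genes is a span of 1639 bases and an exonic length of 1362 bases.

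In a gene of this kind nearly all of the primary transcript is intron. RNA polymerase needs a long time to cross it, the introns are removed while transcription goes on, and intronic RNA in the nucleus therefore holds much more sequence than the mature message. In flies long introns are typical of genes for transcription factors, guidance and adhesion molecules, ion channels and large cytoskeletal proteins, many of them active in the nervous system. Swm (second mitotic wave missing) is a nuclear RNA-binding protein of the fly.

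The study asked how Swm acts in the progenitors of the adult intestine of Drosophila melanogaster, a pool of stem cells and their immediate daughters. In the first set, 3 libraries labelled swm RNAi (genotype swm RNAi, knockdown of Swm) were set against 3 control libraries (titled esgTS, genotype WT). These were RNA-seq libraries of GFP-positive progenitors sorted from the guts of 100 adult females per replicate, with 30000 to 50000 cells. In the second set, 2 RNA libraries recovered on beads carrying an antibody to Swm (Swm IP) were set against 1 library of the total lysate (input). Both came from whole WT intestines, so that all gut cells and not only progenitors contributed. All libraries were depleted of ribosomal RNA. The sources used here give no age, driver, RNAi line or number of crosses. The p-values therefore cover only the spread among these libraries, part of which may be technical.

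The libraries labelled swm RNAi held 14627251 to 19399264 counts and the controls 19428033 to 19962224 counts. Swm IP 1 held 2451369 counts, Swm IP 2 held 8497190 counts and the input 4615623 counts. The swm transcript stood at 159, 137 and 135 CPM (counts scaled to a common library size) with swm RNAi and at 159, 116 and 157 CPM in the controls, a log2 fold change of -0.0036 (SE 0.17, 95% interval -0.39 to 0.38, edgeR adjusted p = 0.998). A lower swm transcript was therefore not measured in the knockdown libraries, and each direction below is that of the libraries as labelled. Of 10 progenitor markers, 10 were tested and 1 passed, cher, which was lower; their sum ran from 6311 to 7618 CPM in the libraries labelled swm RNAi and from 5055 to 8276 CPM in the controls. The sum of 10 visceral muscle markers was 2922 CPM in Swm IP 1 and 11885 CPM in Swm IP 2, against 2247 CPM in the input, and thus differed between the immunoprecipitates.

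The long-intron genes stood higher in both Swm immunoprecipitates than in the input. They took 11.2% of all counts in Swm IP 1 and 10.5% in Swm IP 2, against 4.47% in the input. Of 455 members, 413 had a higher CPM in both immunoprecipitates than in the input and 8 had a lower one in both. Since there is 1 input, these are not independent comparisons. The like count over all genes was not made. In the edgeR fit described next, 428 of 439 tested members had a log2 ratio above 0, where 4197 of 8375 tested genes had. At least 2-fold higher in both immunoprecipitates were 215 of 455 members (47.3%), where 7.4% of all named genes were. At least 2-fold lower in both were 2 members, where 6.16% of all named genes were. Only 8375 of the 17806 named genes had enough counts to be tested, against 439 of 455 members. The shares of all named genes thus include many genes with few or no counts, and the 2 sets are not alike in this. No library from beads without the antibody was analysed here, so RNA that binds the beads cannot be told apart from RNA bound to Swm.

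In the edgeR quasi-likelihood fit over all genes, 439 members had enough counts to be tested and 229 of them (52.2%) were higher in the Swm IP at an adjusted p below 0.05, where 9.25% of all tested genes were. Lower in the Swm IP were 3 members (0.683%), where 8.97% of all tested genes were. The median log2 ratio of the tested members was 1.27 (quartiles 0.80 and 2.08), against 0.0041 over all tested genes. Of the 16 members not tested, 14 had no count in any CLIP-seq library. Among these are all 8 members that lie inside the span of another gene, such as bi, br and Gyc76C. The same was seen over the whole CLIP-seq table. Of genes with at least 20 CPM in RNA-seq, all 188 that lie inside another gene on the same strand and 99.1% of 116 inside one on the opposite strand only had no CLIP-seq count, against 3 of 2373 that overlap no gene. Reads in overlaps thus seem not to have been counted on either strand, and 322 members hold at least 1 smaller gene within their span, 1046 in all.

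The highest ratios belonged to genes that were nearly absent from the input. Cngl, a relative of the cyclic nucleotide-gated ion channels, had 14.2 CPM in Swm IP 1 and 4.39 CPM in Swm IP 2, against no count in the input, and was at least 8.86-fold higher when 3 counts are set as the floor over the input library. The sodium channel gene para had 26.1 and 9.23 CPM in the immunoprecipitates, against 0.742 CPM (3 counts) in the input, a ratio of 17.5 (exact 95% interval 5.87 to 85.8 for counting error only). Every one of these genes stood higher in Swm IP 1 than in Swm IP 2.

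The adhesion gene beat-VI, of the beaten path family of immunoglobulin proteins, had 13.8 and 3.30 CPM in the immunoprecipitates, against 0.247 CPM (1 count) in the input. Its ratio of 22.8 has an interval of 3.95 to 914, and that of side-II, from the sidestep family whose members pair with beat proteins, is 22.1 (3.83 to 886). Nlg4, a neuroligin of the postsynaptic membrane, had 19.6 and 4.50 CPM in the immunoprecipitates, against 0.495 CPM in the input, a ratio of 15.9 (4.27 to 133). Intervals this wide leave the order of these genes unresolved. Mur89F, which encodes a mucin-related protein, CG34354 and CG42339 complete the group, with ratios of 24.5, 19.3 and 19.3. With DESeq2 neither beat-VI (adjusted p = 0.0569) nor Mur89F (0.0574) passed, and side-II and CG34354 were given no adjusted p.

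Marker sums of several cell types were higher in both immunoprecipitates too, but not those of enterocytes and enteroendocrine cells. The sum of the 10 neuron markers was 125 CPM in Swm IP 1 and 83.4 CPM in Swm IP 2, against 22 CPM in the input. Without para and Sh, which are long-intron genes themselves, it was 69.9 and 28.6 CPM in the immunoprecipitates, against 17.6 CPM in the input. Of these 10 markers 7 were above the input in both immunoprecipitates and 2 passed the test, para and Sh; elav had no count in either immunoprecipitate and VAChT none in any of the 3 libraries. The 4 Malpighian tubule markers summed to 264 and 314 CPM in the immunoprecipitates, against 75.5 CPM in the input, and 3 passed. Among these 3 is ct, a long-intron gene. Without ct the sum was 125 and 251 CPM, against 70.8 CPM in the input. The 5 trachea markers summed to 36.9 and 85.5 CPM, against 11.6 CPM in the input, and 2 passed, and the 5 hemocyte markers to 45.7 and 71.4 CPM, against 22.3 CPM in the input, and 1 passed. The 10 progenitor markers summed to 1098 and 1187 CPM, against 685 CPM in the input, and 2 were called higher. Without the members hdc and pnt their sum was 435 and 527 CPM, against 321 CPM. The 6 ovary and eggshell markers summed to 10.4 and 8.46 CPM, against 0.495 CPM in the input, and 1 was tested and passed. For the 8 enterocyte markers the sum was 14703 and 12903 CPM, against 14156 CPM in the input. Most of it was Vha16-1, at 12437 and 10718.5 CPM, against 11365 CPM in the input. Of these 8, 4 were above the input in both immunoprecipitates. Alp4 and pdm2 were called higher, and Alp9, Npc2f and Ance were called lower. For the 10 enteroendocrine markers it was 342 and 373 CPM, against 415 CPM, and 0 were called higher. The part of these cells' RNA in the members' ratios was not tested.

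The 3 members lower in the Swm IP were ND-15, Lim1 and CG9380. ND-15 encodes a subunit of mitochondrial complex I and had 15.4 and 24.2 CPM in the immunoprecipitates, against 67.5 CPM in the input (log2 ratio -1.74, SE 0.40, edgeR adjusted p = 0.000435). Its exons sum to 1135 bases in a span of 41305 bases (BDGP6 2L, 114726 to 156030), most of which is 1 intron of 40097 bases with 12 other genes inside the span. Lim1, a LIM-homeodomain transcription factor, had 18.4 and 6.04 CPM in the immunoprecipitates, against 32.4 CPM in the input (log2 ratio -1.48, SE 0.55, adjusted p = 0.0465), and no count in any RNA-seq library. CG9380 had 535 and 554 CPM in the immunoprecipitates, against 1158 CPM in the input (log2 ratio -1.09, SE 0.27, adjusted p = 0.000975). Lim1 did not pass with DESeq2 (adjusted p = 0.283).

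Among the other genes the ratio was higher at greater exonic length. In 5 classes of exonic length of equal size, the other genes had median log2 ratios of -0.97, -0.46, -0.096, 0.31 and 0.79. Members were therefore read beside genes of like exonic length. Across 434 members themselves the rank correlation of the ratio with exonic length was 0.016, and with span it was 0.067. The class with the longest exonic sequence (4464 bases or more) holds 356 of the tested members. Their median log2 ratio was 1.28, against 0.79 for the 1319 other genes there, and 57.9% of them were called higher, against 30.3%. In the middle class (1859 to 2764 bases) the 21 members had a median of 1.52, against -0.096 for 1655 other genes. Within the longest class the median climbed step by step with span. It was 0.49 for genes under 5 kb, 0.58 for 5 to 10 kb, 0.85 for 10 to 20 kb, 1.05 for 20 to 40 kb, 1.29 for 40 to 100 kb and 1.47 for 100 kb or more. The share called higher in these classes was 3.13%, 22.4%, 35.1%, 36.9%, 53.5% and 76.6%. Exonic length was not constant within that class: its median was 4602 bases in the shortest class of span and 11016 bases in the longest. Among all tested members the median did not climb in order with span. It was 1.17 at 40 to 50 kb, 1.43 at 50 to 60 kb, 1.25 at 60 to 90 kb and 1.28 at 90 kb or more.

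**Figure D1:**
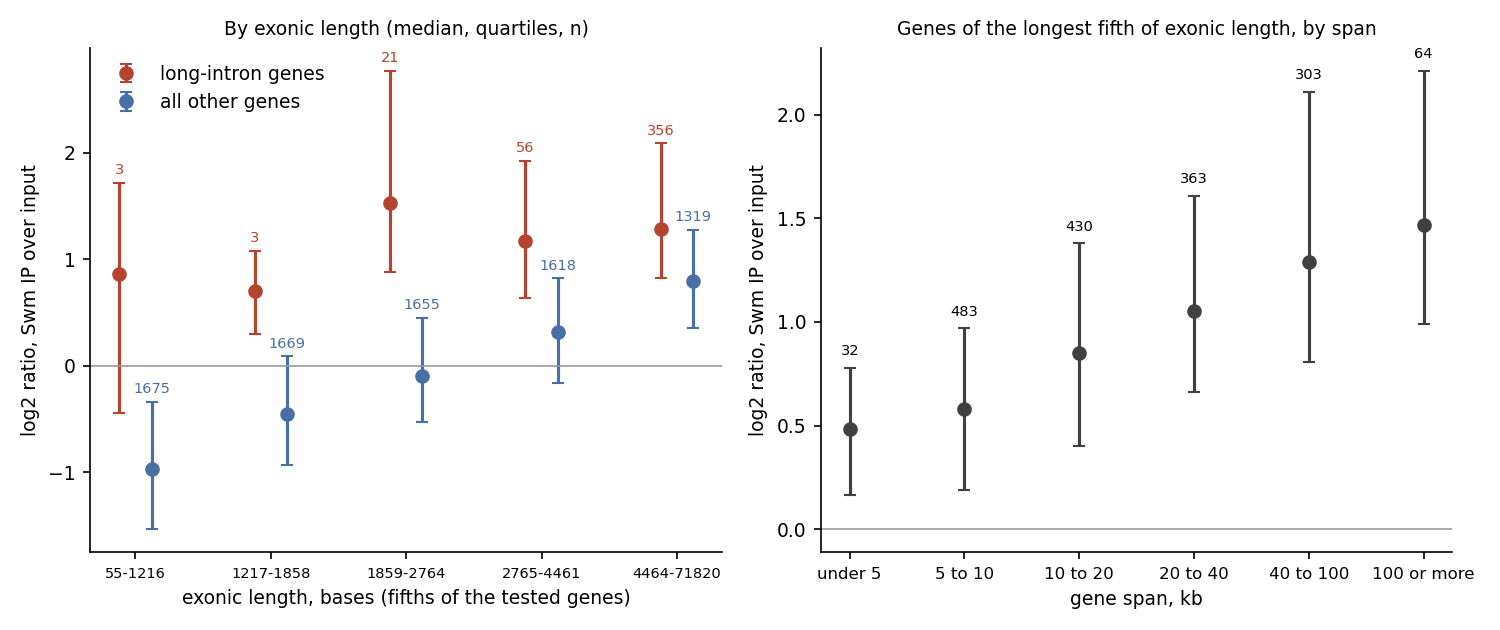
Median log2 ratio of Swm IP over input (points, with quartiles as bars and the number of genes above) by class of exonic length in bases for long-intron genes and all other genes (left), and by gene span in kb for all tested genes of the longest class (right). Members lie above the other genes in each class, 1.28 against 0.79 in the longest, and at right the median climbs from 0.49 under 5 kb to 1.47 at 100 kb or more.

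To hold exonic length fixed across all genes, the smooth trend of each immunoprecipitate's ratio on exonic length was taken out in the fit. The members' median log2 ratio was then 0.42, against 0.035 over all tested genes. Higher in the Swm IP at fixed exonic length were 45 of 439 members (10.3%), where 2.2% of all tested genes were, and lower were 12 (2.73%), where 4.16% were. All 45 are among the 229 called before, and none of the 229 turned to a lower call. Members above the trend in both immunoprecipitates made up 55.4% of those tested, and those below it in both 24.6%, where all tested genes gave 37.3% and 36.8%. When the trend was taken on span instead of exonic length, 6 members were higher and 34 lower with a median of 0.018. Span is the length that chose the members, so a median near 0 was in large part set in advance. The shares of all tested genes under that trend are not given here, and no conclusion is drawn from these counts.

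At fixed exonic length the highest members past the threshold were Cngl, beat-VI, CG42339, Nlg4 and dpr21. The last, an immunoglobulin gene of the defective proboscis extension response family, spans 124513 bases with exons of only 993 bases. It had 18.4 and 17.2 CPM in the immunoprecipitates, against 2.97 CPM in the input (log2 ratio at fixed exonic length 3.44, SE 0.80, edgeR adjusted p = 0.00086). The lowest were Lim1, CG9380, pan, lola and Pdp1, of which 4 encode transcription factors. The gene of lola, a zinc finger factor with many splice forms, had 1171 and 1093 CPM in the immunoprecipitates, against 776 CPM in the input. Its log2 ratio of 0.54 (adjusted p = 0.197) became -1.06 (SE 0.20, adjusted p = 2.02e-05) once its exonic length of 25208 bases was taken into account. Likewise pan, the TCF factor of Wingless signalling, had 116 and 118 CPM, against 121 CPM in the input, and a log2 ratio of -1.34 (SE 0.26) at fixed exonic length. Pdp1, a bZIP factor, had 714 and 528 CPM, against 546 CPM in the input, and a log2 ratio of -1.02 (SE 0.20) there.

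Members with long single introns were called more often at fixed exonic length. The share called higher was 2.67% of 75 members whose longest intron is under 15 kb, 7.73% of 194 at 15 to 30 kb, 13.7% of 131 at 30 to 60 kb and 23.5% of 34 at 60 kb or more. The median log2 ratios in these classes were 0.016, 0.40, 0.63 and 0.54. Across 434 members the rank correlation of the ratio at fixed exonic length with the longest intron was 0.18 and with the span 0.012. With exonic length it was -0.37: the trend taken out is that of all genes, and the members' median at fixed exonic length was 1.59, 0.91 and 0.30 in the middle, the next and the longest class of exonic length. With the input CPM the correlation was -0.74. That level is the divisor of the ratio, so the correlation is in part built in, and it is given as a description.

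At fixed exonic length, members near a centromere were called more often as well. This grouping was chosen after the values were seen and is a description without a test. The distance was taken to the last annotated gene next to the centromere of each long arm. Of the 12 members within 2 Mb, 5 were called higher at fixed exonic length, of 17 at 2 to 4 Mb also 5, of 66 at 4 to 8 Mb 9, and of 330 farther away 24. In the IP fit without the trend on exonic length, members showed no such order. There 50%, 52.9%, 57.6% and 52.4% were called higher in these classes, from nearest to farthest. The members called at fixed exonic length had exons of 2367 to 3074 bases within 2 Mb and of 859 to 6490 bases at 2 to 4 Mb. The median of all members is 7289 bases, and the members' ratio at fixed exonic length fell with exonic length (rank correlation -0.37). The part of exonic length in the calls near a centromere was not tested. Among the other genes the share at fixed exonic length was 8.99% of 89 within 2 Mb and 1.30% of 230 at 2 to 4 Mb. It was 1.17% of 1107 at 4 to 8 Mb and 1.82% of 5925 farther away, so that only the class within 2 Mb was above the others. Parp, the poly(ADP-ribose) polymerase, lies 3.36 Mb from that end on 3R and had 753 and 696 CPM in the immunoprecipitates, against 300.1 CPM in the input (log2 ratio at fixed exonic length 1.1, SE 0.22, edgeR adjusted p = 5.34e-05). The DEAD-box helicase gene Dbp80, 0.663 Mb from the end of 3L, had 350.5 and 331.2 CPM, against 163 CPM in the input (1.15, SE 0.23, adjusted p = 4.98e-05).

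Members that progenitors hardly held were above the input as well. Members not inside another gene were pooled in classes of mean CPM in the 6 RNA-seq libraries. For classes of 1 to 10, 10 to 100 and 100 CPM or more, their summed CPM was 2.12, 1.99 and 2.09 times that of the input in Swm IP 1 and 2.13, 1.79 and 1.93 times in Swm IP 2. The 167 members under 1 CPM gave 1.99 times the input in Swm IP 1 and 2.15 times in Swm IP 2, but these values rest largely on 1 member, the immunoglobulin gene dpr2. It had 1822 and 1956 CPM in the immunoprecipitates, against 1518 CPM in the input. The other 166 members, pooled without dpr2 after the values were seen, were 3.10 and 3.36 times the input. They had 0.224 and 0.243 CPM per kb of span in the immunoprecipitates, against 0.0724 CPM per kb in the input. Without their own most counted member (CG34417, bbg and shot), the higher classes stayed at 1.78 to 2.01 times the input. The other genes gave 0.669 to 0.813 in Swm IP 1 and 0.732 to 0.931 in Swm IP 2. The CLIP-seq libraries are of the whole gut, so that these transcripts need not come from progenitors.

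**Figure D2:**
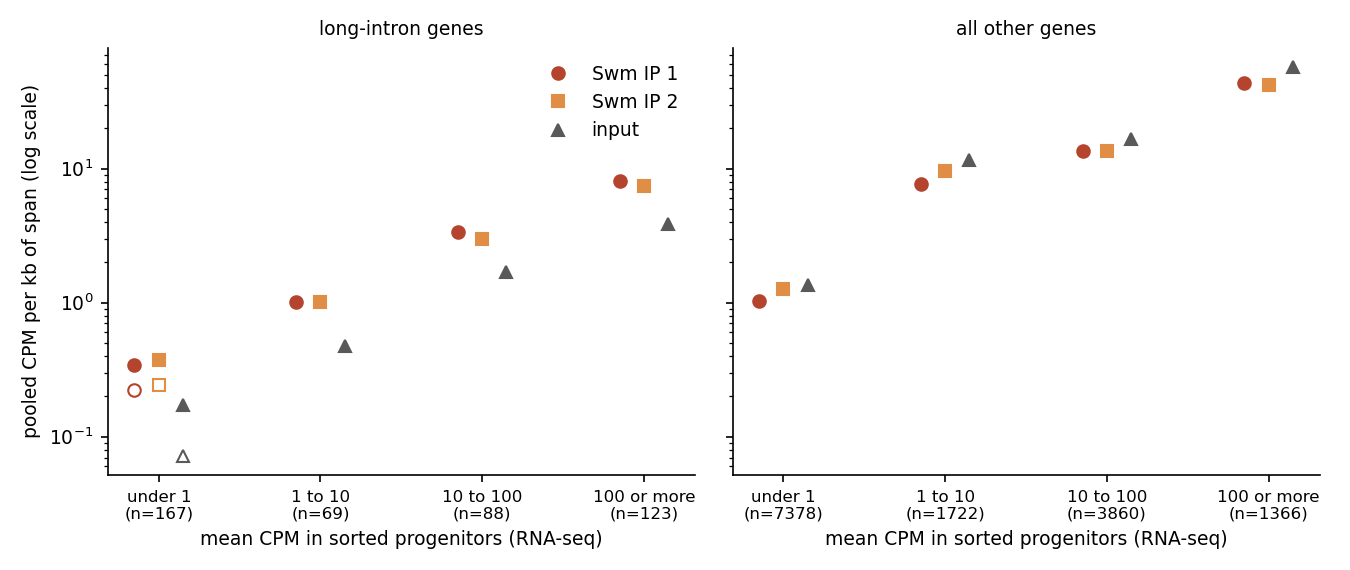
Pooled CPM per kb of gene span (log scale) in Swm IP 1, Swm IP 2 and the input, for members (left) and all other genes (right), in classes of mean CPM in the sorted progenitors. Open symbols give the lowest class without dpr2. In each class both immunoprecipitates lie above the input for members, by 1.79 to 2.15 times and by 3.10 and 3.36 times in the lowest class without dpr2, and below it for the other genes.

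By role, members past the test in the IP fit were found in every list. The lists were written from gene names and known functions and cover 226 members. Of the RNA-binding proteins 11 of 16 were higher, of kinases and signalling proteins 31 of 44, of the cytoskeleton and muscle list 9 of 14, of transcription and chromatin factors 27 of 43, of adhesion, matrix and guidance proteins 39 of 72 and of channels and neurotransmitter receptors 12 of 32, with Lim1 the only lower call in these lists. Members on no list gave 100 higher and 2 lower of 218. At fixed exonic length the counts of higher calls were 2, 5, 1, 5, 8, 5 and 19 in the same order, and of lower calls 0, 1, 0, 4, 1, 0 and 6.

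Of the RNA-binding proteins with the highest control CPM, Syp, an hnRNP of the Syncrip type, had 584 and 543 CPM in the immunoprecipitates, against 337 CPM in the input (log2 ratio 0.74, SE 0.27, edgeR adjusted p = 0.0387). The splicing factor gene mbl (muscleblind, span 162828 bases) had 506 and 568 CPM, against 319 CPM in the input (0.75, SE 0.27, adjusted p = 0.0342). Neither passed with DESeq2 (adjusted p = 0.0619 and 0.0624), and both lay below the trend of exonic length, at -0.41 and -0.56, without passing there.

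In the adhesion list, Dscam1, an immunoglobulin receptor known for its very many splice forms, had 57.6 and 68.3 CPM in the immunoprecipitates, against 30.2 CPM in the input (log2 ratio 1.07, SE 0.38, adjusted p = 0.0342, with DESeq2 0.128). For mew, an integrin alpha subunit, the values were 202 and 262 CPM, against 195 CPM in the input, and it did not pass (adjusted p = 0.553). The cytoskeletal giant shot, a spectraplakin that links actin and microtubules, had 9276 and 7657 CPM, against 2753 CPM in the input (1.62, SE 0.38, adjusted p = 0.000608). With 30414 bases shot has the longest exonic sequence of any member, and at fixed exonic length its log2 ratio was -0.089. The LIM-domain gene smash had 1672 and 1444 CPM, against 784 CPM in the input (0.99, SE 0.30, adjusted p = 0.0115).

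Of the channels, the TRP cation channel Trpm had 260 and 247 CPM in the immunoprecipitates, against 138 CPM in the input (0.88, SE 0.26, adjusted p = 0.0095), and the potassium channel KCNQ 109 and 114 CPM, against 83.6 CPM in the input, without passing (adjusted p = 0.377). In signalling, hdc (headcase, a factor of progenitor maintenance) had 295 and 283 CPM, against 119 CPM in the input (1.29, SE 0.27, adjusted p = 0.000105), while the polarity protein gene baz (Par-3) missed the threshold (0.63, adjusted p = 0.0757). Among chromatin and transcription factors, kis, a chromodomain helicase, had 2351 and 1775 CPM, against 744 CPM in the input (1.47, SE 0.32, adjusted p = 0.000212). The TSC22-family gene bun was not called (0.42, adjusted p = 0.354) and was lower at fixed exonic length (-0.80, SE 0.21, adjusted p = 0.0032).

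Of the 5 longest genes, 2 were higher in the Swm IP. Myo81F, an unconventional myosin gene of 1965857 bases in the centromeric part of 3R (BDGP6 567076 to 2532932), had no count in the RNA-seq libraries. It had 125 and 67.1 CPM in the immunoprecipitates, against 40.3 CPM in the input (log2 ratio 1.24, SE 0.35, edgeR adjusted p = 0.0060, with DESeq2 0.0628). Pzl, a Piezo-like channel gene of 709421 bases, had 67.3 and 40.6 CPM, against 6.93 CPM in the input (2.94, SE 0.50, adjusted p = 1.14e-06). Neither kirre, an immunoglobulin gene of muscle founder cells, nor CG17684 or CG45782 passed, the last with 49.6 CPM in Swm IP 1 and 206 CPM in Swm IP 2.

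Genes near the threshold of span are given as a description. Just inside it, Cda5, kis and dlg1, of 40003 to 40112 bases, had log2 ratios of 1.53, 1.47 and 1.05. Just outside, Eip78C, NFAT and IA-2, of 39676 to 39895 bases, had 1.19, 0.76 and 0.24. Of 498 tested genes with spans of 20000 to under 40000 bases and the same limit on exonic share, 28.3% were called higher, with a median log2 ratio of 1.03, and 4.82% at fixed exonic length, with a median of 0.27. Of the 144 tested members of 40 to 50 kb, 41.0% were called higher, with a median of 1.17, and 4.86% at fixed exonic length, with a median of 0.37.

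The immunoprecipitates did not rank all members alike. Of 363 members with at least 100 CLIP-seq counts, 5 were at least 4-fold higher in Swm IP 2 than in Swm IP 1: NetA, CG44422, Ubx, Antp and CG45782. How many of all genes differed as much was not counted, so these 5 are not read as a trait of members. The Hox gene Antp had 43.4 CPM in Swm IP 1 and 230 CPM in Swm IP 2, against 9.40 CPM in the input, and Ubx 20.4 and 109 CPM, against 3.71 CPM in the input. NetA, which encodes a secreted netrin, had 27.7 and 193 CPM, against 31.4 CPM in the input, so that it was above the input in 1 immunoprecipitate only. None of these 5 passed the test (adjusted p = 0.473 to 0.712). Higher in Swm IP 1 was InR, the insulin receptor, with 1659 CPM there and 519 CPM in Swm IP 2, against 232 CPM in the input (adjusted p = 0.510). The gene side had 47.3 CPM in Swm IP 1 and 11.8 CPM in Swm IP 2, against 1.48 CPM in the input. It passed the test (edgeR adjusted p = 0.0007). The log2 differences of InR and side, with a prior count of 2, were -1.68 and -1.97, short of the 4-fold limit. These genes were chosen after their values were seen, and the muscle markers were higher in Swm IP 2 as well; their part in these differences was not tested.

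**Figure D3:**
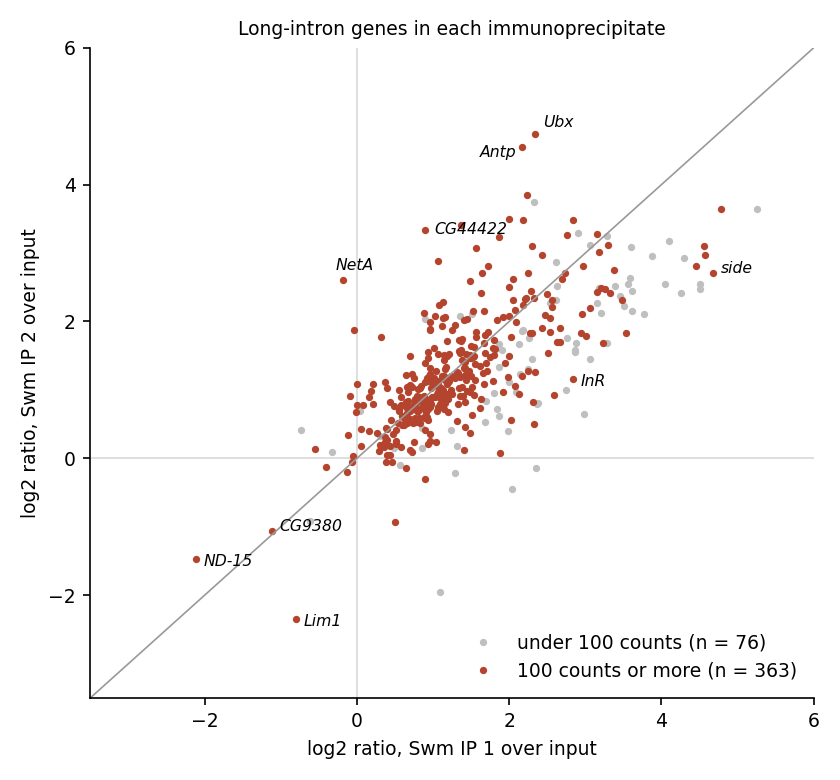
Log2 ratio over the shared input of each of the 439 tested members in Swm IP 1 (x axis) and Swm IP 2 (y axis), in red with at least 100 CLIP-seq counts and in grey with fewer; the diagonal marks equal ratios. Most members lie above 0 on both axes, Antp, Ubx, NetA and CG44422 lie well above the diagonal, and ND-15, Lim1 and CG9380 lie below 0 on both.

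In the sorted progenitors few long-intron genes differed between the libraries labelled swm RNAi and the controls. Members took 4.68%, 5.79% and 5.45% of counts in the libraries labelled swm RNAi (mean 5.31 ± 0.566, SD, n = 3) and 6.95%, 3.64% and 5.40% in the controls (mean 5.33 ± 1.65, SD, n = 3). The controls alone spanned a wider range than the other group, and the groups overlapped (difference -0.023 percentage points, two-sided exact permutation p = 1, the smallest possible being 0.1). Of 308 members with enough counts, 8 rose (2.60%), where 2.34% of all tested genes did, and 6 fell (1.95%), where 0.832% did. The median log2 fold change of the tested members was 0.014, against 0.033 over all tested genes. Of the 147 members not tested, 26 had no count in any RNA-seq library. In sorted bulk samples, fewer cells of a type and less RNA per cell cannot be told apart.

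Values without overlap between the groups were seen for 34 members above the controls and 34 below, 11.0% of the tested members each way. Over all tested genes the shares were 12.3% and 7.94%. In the class of genes with the longest exonic sequence (3956 bases or more), the 278 tested members gave 2.52% risen and 1.80% fallen, and the 1502 other genes 2.40% and 1.40%.

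The 8 members that rose were Shawl, MRP, CG33158, Sema2b, bi, tyn, Eip63E and side. Shawl, a potassium channel of the Shaw type, had 20.3, 30.5 and 27.5 CPM in libraries labelled swm RNAi, against 0.256, 1.27 and 0.147 CPM in the controls (log2 fold change 5.52, SE 0.66, edgeR adjusted p = 0.0015). MRP, an ABC transporter of the multidrug resistance type (BDGP6 2L, 12719045 to 12766546), had 348, 351 and 309 CPM, against 152, 137 and 155 CPM in the controls (1.18, SE 0.16, adjusted p = 0.0017). For both genes the groups were far apart and each kept its call when any 1 library was left out.

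CG33158 had 152, 155 and 121 CPM in libraries labelled swm RNAi, against 53.5, 43.4 and 67.0 CPM in the controls (log2 fold change 1.39, SE 0.19, edgeR adjusted p = 0.0021). It too kept its call without any 1 library. The secreted semaphorin Sema2b had 43.5, 61.9 and 54.3 CPM, against 29.5, 17.8 and 20.5 CPM in the controls (1.24, SE 0.24, adjusted p = 0.0156), with no overlap. The T-box factor gene bi (optomotor-blind) had 5.90, 9.82 and 5.85 CPM, against 0, 0.196 and 0.442 CPM in the controls (5.03, SE 1.04, adjusted p = 0.0230). The zona pellucida protein gene tyn (trynity) had 16.1, 12.4 and 12.9 CPM, against 4.14, 2.01 and 0.884 CPM in the controls (2.56, SE 0.54, adjusted p = 0.0258). Both are low in the controls in every library, so that their folds rest on few control counts, 13 for bi and 140 for tyn.

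Eip63E, a cyclin-dependent kinase induced by ecdysone, had 312, 330 and 317 CPM in libraries labelled swm RNAi, against 215, 182 and 167 CPM in the controls (0.77, SE 0.17, adjusted p = 0.0295). It was the smallest rise of the 8, and it did not pass without any of 5 libraries in turn. The guidance gene side (sidestep) had 3.37, 7.21 and 3.51 CPM, against 0, 0.147 and 0 CPM in the controls. With 3 control counts its ratio was 99.4 (exact 95% interval 33.6 to 486 for counting error only), at an edgeR adjusted p of 0.0297.

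The 6 members that fell were CG17716, CG42784, Prosap, MESR3, wb and dve. CG17716 (named tei in BDGP6) fell to 1.05, 0.209 and 0.688 CPM in libraries labelled swm RNAi, against 15.9, 8.63 and 8.15 CPM in the controls (log2 fold change -4.08, SE 0.66, edgeR adjusted p = 0.0055). It was the one of the 6 that kept its call without any 1 library. CG42784 fell to 1.76, 2.77 and 6.26 CPM, against 65.1, 21.5 and 41.3 CPM in the controls (-3.57, SE 0.56, adjusted p = 0.0126). Prosap, the fly Shank scaffold, fell to 5.12, 2.30 and 4.75 CPM, against 23.4, 15.3 and 12.3 CPM in the controls (-2.07, SE 0.42, adjusted p = 0.0201). In these 3 genes each library labelled swm RNAi lay below each control.

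Smaller falls were seen for the others. MESR3, found in a screen for suppressors of Ras, fell to 23.6, 31.7 and 21.4 CPM in libraries labelled swm RNAi, against 43.6, 52.1 and 65.8 CPM in the controls (-1.07, SE 0.23, adjusted p = 0.0257). The laminin alpha chain gene wb (wing blister), a part of the basement membrane on which progenitors sit, fell to 75.1, 103.7 and 66.4 CPM, against 141, 142 and 148 CPM in the controls (-0.82, SE 0.18, adjusted p = 0.0372). The homeodomain factor gene dve (defective proventriculus) fell to 23.7, 21.9 and 25.3 CPM, against 38.7, 39.5 and 67.8 CPM in the controls (-1.04, SE 0.24, adjusted p = 0.0437). Without single libraries, 10 of the 14 calls were lost at least once, the highest adjusted p being 0.279 for side without 1 library labelled swm RNAi; no direction changed.

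**Figure D4:**
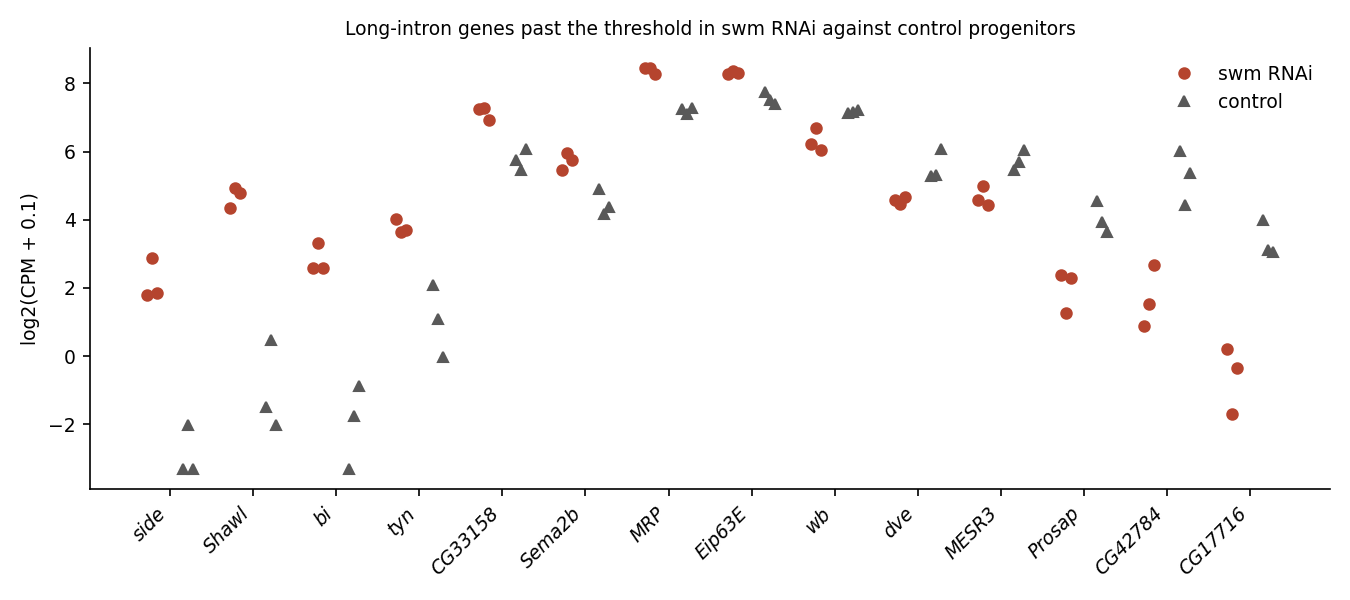
Log2(CPM + 0.1) of the 14 members past the threshold in each library labelled swm RNAi (circles, left of each pair) and each control library (triangles). The 8 genes at left rose and the 6 at right fell; the groups overlap in none of them.

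Of these 14 genes 13 were tested in the IP fit, and 8 were also higher in the Swm IP (61.5%, where 52.2% of all tested members were): Sema2b, Eip63E and side among those that rose and CG17716, Prosap, MESR3, wb and dve among those that fell. MESR3 had 380 and 305 CPM in the immunoprecipitates, against 204 CPM in the input, and passed at fixed exonic length too (log2 ratio 0.94, SE 0.23, adjusted p = 0.0015), as did side (3.05, SE 0.74, adjusted p = 0.0018). MRP, which rose, was lower at fixed exonic length (-0.68, SE 0.21, adjusted p = 0.0219). With DESeq2, 3 of the 8 IP calls held (side, Prosap and dve). The gene bi lies inside another gene and had no CLIP-seq count.

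Markers of other cell types were also read in the progenitor libraries. The sum of 8 enterocyte markers ran from 1225 to 1365 CPM in the libraries labelled swm RNAi and from 1035 to 1878 CPM in the controls, most of it Vha16-1, and none of 6 tested passed. The sum of 10 visceral muscle markers ran from 14.4 to 28.1 CPM in the libraries labelled swm RNAi and from 21.6 to 27.6 CPM in the controls, and none of 9 tested passed. The sum of 10 neuron markers ran from 51.5 to 74.9 CPM with swm RNAi and from 17.7 to 51.9 CPM in the controls, with elav at 47.9 to 68.9 CPM and 12.5 to 46.1 CPM, and none of 4 tested passed; Rdl and VAChT had no count. Of 6 ovary markers, whose sum ran from 489 to 1297 CPM with swm RNAi and from 37.4 to 56.7 CPM in the controls, piwi held 487 to 1295 CPM with swm RNAi and 34.1 to 54.0 CPM in the controls and was the 1 of 3 tested that passed. The part of such cells in the members' changes was not tested.

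Much of the variation of long-intron genes in RNA-seq lay between the controls. The median deviation of the tested members from their mean over the 6 libraries, in log2 CPM, was -0.067, 0.15 and 0.094 in the libraries labelled swm RNAi and 0.35, -0.29 and -0.024 in controls 1, 2 and 3. The other genes had medians between -0.026 and 0.063 in every library. In controls 1 and 2 the deviation grew with span in opposite directions. Genes under 2 kb had medians of -0.12 in control 1 and 0.11 in control 2, and genes of 40 to 100 kb had 0.37 and -0.30. The members' median log2 fold change was -0.17 without control 2 and 0.20 without control 1.

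**Figure D5:**
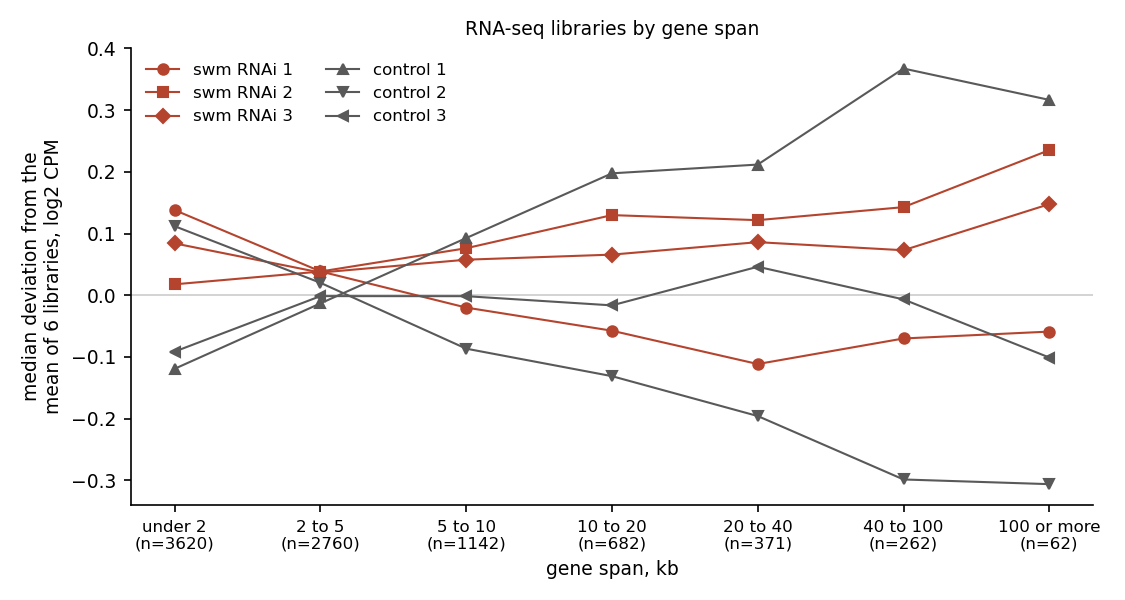
Median deviation of log2 CPM from the mean of the 6 RNA-seq libraries by gene span in kb, with the number of tested genes, for each library labelled swm RNAi (red) and each control (grey). Controls 1 and 2 part with span, to 0.37 and -0.30 at 40 to 100 kb. They enclose all libraries labelled swm RNAi in the classes from 5 kb upward, but not in the shorter classes.

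Of 126 tested members with a control mean of at least 100 CPM, 114 were lowest in control 2 among the controls. In 31 of them control 2 was below 0.5 of the mean of the other controls. The like counts over other genes were not made. Genes of 5 to 10 kb and 10 to 20 kb also had negative median deviations in control 2, -0.086 and -0.13, so the dip is not particular to members. Syp had 865, 1198 and 1147 CPM in libraries labelled swm RNAi, against 1692, 158 and 929 CPM in controls 1, 2 and 3. The bZIP gene Pdp1 had 718, 1022 and 1032 CPM, against 1678, 191 and 806 CPM in the controls, and hdc had 1554, 1891 and 1813 CPM, against 1952, 521 and 1158 CPM in the controls. In all 3 genes the libraries labelled swm RNAi lay close together and between controls 1 and 2. The widest gap was in mamo, a zinc finger factor chosen here after its values were seen, with 595, 798 and 754 CPM, against 1321, 50.3 and 452 CPM in the controls. The controls of mew were even, at 1137, 1012 and 1070 CPM, with 926, 1085 and 992 CPM in libraries labelled swm RNAi, so that not all abundant members shared the dip.

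The other abundant members of the role lists did not pass in the swm RNAi comparison either. The largest differences among them were for Trpm, with 54.4, 63.7 and 58.0 CPM in libraries labelled swm RNAi, against 103, 83.7 and 77.0 CPM in the controls (-0.58, SE 0.17, adjusted p = 0.113), and for Dscam1, with 1044, 1287 and 1149 CPM, against 1985, 1343 and 1430 CPM in the controls (-0.45, SE 0.20, adjusted p = 0.356). In both the groups did not overlap, yet neither passed the test. The values of shot were 2281, 2764 and 1851 CPM, against 2942, 1657 and 2838 CPM in the controls (-0.11, SE 0.24, adjusted p = 0.935), and those of kis 1645, 1915 and 1903 CPM, against 2268, 959 and 1821 CPM in the controls (0.11, SE 0.27, adjusted p = 0.941).

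In the authors' deposited tables, 160 of 406 members with an adjusted p-value were higher in the Swm IP (39.4%) and 2 lower (0.493%). Of all genes with an adjusted p-value there, 7.26% were higher and 5.74% lower. In the authors' deposited table for swm RNAi, 12 of 351 members were higher (3.42%) and 8 lower (2.28%), where 3.15% and 1.45% of all genes with an adjusted p-value were.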

How the data were processed

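RNA-seq of sorted progenitors (3 libraries labelled swm RNAi, 3 controls) and CLIP-seq of whole intestines (2 Swm IP, 1 input) were analysed. The deposited values are raw counts of reads, 1 row for each gene. Named in the submitters' processing notes are STAR 2.7.3a, SAMtools 1.10, cutadapt 2.9, featureCounts, DESeq2 and Subread 2.0.0. Build, annotation and strand setting are not given in the sources used here. Gene length in the CLIP-seq table equals the BDGP6 span, introns included, for 99.7% of the 17455 genes matched, and leaves introns out in the RNA-seq table. Intronic reads could therefore enter only the CLIP-seq counts, and CPM values of the 2 tables are not on 1 scale. The log2 fold changes and adjusted p-values of the authors' deposited DESeq2 tables were used only where named. Their 9 per-sample columns were not used, nor was a row without a gene name (at most 5 counts). Coordinates, introns and enclosed genes are from BDGP6, in which 450 members were found.

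The robust quasi-likelihood test of edgeR 4.0.16 (R 4.3.3) was run on TMM-scaled counts after filterByExpr with a minimum count of 10. Adjustment was by Benjamini-Hochberg over all tested genes, with a threshold of 0.05. The SE is the log2 ratio divided by the root of F. CPM uses TMM-scaled library sizes. The IP fit has 1 residual degree of freedom and assumes that the input varies like the IP libraries. For fixed exonic length, a loess trend (span 0.3) of each IP library's log2 ratio on log2 exonic length entered as an offset. The 2-fold rule used log2 CPM with a prior count of 2. The fits were tested on simulated counts with known changes. Of 2-fold changes the IP fit recovered 10 of 107, the fit at fixed exonic length 2 of 106 and the swm RNAi fit 30 of 104. Of 4-fold changes they recovered 49 of 93, 49 of 94 and 71 of 96. False calls made up 4.84%, 8.93% and 7.34% of the calls, the last 2 above the threshold of 0.05. Intervals and floors of 3 counts cover counting error only.

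Replicate numbers did not pair the RNA-seq samples. Alternatives were other scaling, DESeq2 1.42.0, other filters, the robust option off, a replicate block, length trends, other spans and left-out libraries. The members, role lists, marker lists and tests were chosen with earlier results of these data known. Genes were named by rule, unless said otherwise: the 8 highest and 5 lowest IP ratios, the 5 highest and 5 lowest at fixed exonic length (each past the threshold with at least 5 CPM in the IP or input), up to 10 called each way with swm RNAi, the 2 of each role list with the highest control CPM, the 5 longest spans and 3 genes on each side of the span threshold.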

Additional observations from a re-analysis of the deposited data

How the results depend on the processing

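With 1 input and 1 residual degree of freedom, IP calls rest on a spread borrowed across genes, and low input counts give wide intervals. The share of members higher in the Swm IP (52.2%) ran from 36.1% with DESeq2 to 61.7% with library sizes alone over the other fits of the members. Among the 329 members of at least 10 CPM it was 62.9%, and at spans of 20000 to under 40000 bases 28.3%. The share lower (0.683%) was 0.454% without a filter and with DESeq2, 0.201% at those shorter spans and 1.09% among members overlapping no other gene. The median (1.27) was 1.56 with library sizes alone, 1.33 at a minimum count of 30, 1.03 at shorter spans and 1.09 at 10 CPM or more. From each immunoprecipitate alone, with a prior count of 2 and no test, it was 1.13 to 1.21. At fixed exonic length the share higher (10.3%) was 15.6% at spans of at least 60000 bases, 4.82% at shorter spans and 1.37% with the trend taken on span, and the share lower (2.73%) was 5.02% and 7.74% in the shorter-span and span-trend settings, in that order. The median there (0.42) was 0.27 at shorter spans, 0.018 with the trend on span, 0.17 at 10 CPM or more and 0.33 to 0.38 from each immunoprecipitate alone. MESR3 turned to -0.39 with the trend on span. Since span chose the members, values near 0 under that trend are in large part built in. The 10 CPM limit, the absence of overlap and the single immunoprecipitates at fixed exonic length were added after the data were seen. Members at least 2-fold lower in both immunoprecipitates (0.44%) were 0.659% at a prior count of 0.5, 0.22% with library sizes alone and 0.44% to 0.879% from 1 immunoprecipitate. With swm RNAi, the share higher (2.60%) ran from 0.917% to 4.56% and the share lower (1.95%) from 0.606% to 3.13% when 1 library was left out, and was 3.03% lower without a filter. The extremes were the fits without swm RNAi replicate 2, control 1, control 3 and control 2. A replicate block gave 2.60% higher and 2.27% lower with a median of 0.098. Deviations of libraries with the same number correlated at -0.063, -0.049 and 0.0040, so the numbers were not taken as pairs. Among single named genes, 80 alternative values lost the threshold, 19 gained it, 1142 stayed and 47 without a test moved. The causes were not tested.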

Other observations

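The 7 members on the Y chromosome, which are known for their activity in the male germ line, had CLIP-seq counts. The labels' protocol names female flies in its account of the sorted progenitors and does not restate the sex for the CLIP-seq intestines. Ppr-Y had 34 and 42 counts in the immunoprecipitates, against 37 in the input, and kl-3, a dynein heavy chain gene of sperm flagella, had 21 and 38 counts, against 7 in the input. ORY had 18 and 15 counts and kl-2 had 8 and 16 counts, against none in the input for both. In the RNA-seq libraries the 7 genes together had few counts, with Ppr-Y, WDY and PRY at 0 in all and kl-2 highest, at 8 in the libraries labelled swm RNAi and 1 in the controls. None passed the IP test. These genes and the next were chosen after their values were seen.

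A member with no RNA-seq count in progenitors stood among the highest in the CLIP-seq libraries. The immunoglobulin gene dpr2, with 1822 and 1956 CPM in the immunoprecipitates, against 1518 CPM in the input, did not pass the IP test (log2 ratio 0.32, edgeR adjusted p = 0.534). Of the 26 members without any RNA-seq count it had by far the most CLIP-seq counts, followed by Myo81F with 611 in Swm IP 2. Since the CLIP-seq table counts over the whole span and the RNA-seq table over exons, and the CLIP-seq libraries are of whole guts, the values are not on 1 scale.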
